A study of Mus musculus with 51 samples.

Results

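CD31+ cells sorted from bleomycin-injured mouse lungs were set against the 3 other sorted fractions of the same kind of lung, to describe which genes, ligands and receptors were endothelial in the fibrotic lung. The rule took the bleomycin libraries only, 31 of the 51 libraries of the series: 7 of CD31+ cells against 8 of CD45+ cells, 8 of EpCAM+ cells and 8 of cells negative for all 3 proteins (the triple-negative fraction). All came from male C57/B6 mice, studied on day 14 after bleomycin, an agent that causes lung injury and fibrosis, was given into the trachea. CD31 is the protein of Pecam1 and marks endothelial cells, CD45 marks leukocytes and EpCAM marks epithelial cells, so the triple-negative fraction should hold fibroblasts, other mesenchymal cells and mural cells. The remaining 20 libraries, 5 for each fraction, came from mice given saline in the same way and were used only where a lead was compared with the uninjured lung. Libraries were made from total RNA with a stranded kit. The design counts 8 bleomycin and 5 saline animals, against 7 bleomycin CD31+ libraries analysed here. The 4 fractions were sorted from the same animals, but the animal behind each library is not given in the sources used here, so the tests below treat libraries as independent.

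Endothelial cells line every vessel of the lung: arteries, veins, lymphatics and the dense capillary bed in which gas is exchanged. They receive signals through receptor tyrosine kinases for VEGF and angiopoietins, through BMP, Notch and G-protein-coupled receptors, and they send signals to mural cells, fibroblasts, epithelium and leukocytes through secreted and membrane-bound ligands. In fibrotic lung the question for each ligand is which compartment makes it, and for each receptor which compartment can receive it.

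Levels are given as CPM, counts scaled to a common library size, and differences on the log2 scale. A gene was called CD31+-leading when it was at least 4-fold higher (log2 difference of 2 or more) than in each of the 3 other fractions, with an adjusted p under 0.05 in each of the 3 tests (edgeR quasi-likelihood test, Benjamini-Hochberg adjustment over all 18503 genes tested). The least lead is the smallest of the 3 log2 differences. The CD31+ libraries held 22452175 to 29631350 counts each, and the bleomycin libraries as a whole 15692665 to 35316904. In bulk RNA fewer cells of a type and less RNA per cell cannot be told apart, and this holds for every level below.

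The CD31+ libraries carried the endothelial markers their label implies. Pecam1 itself, which the sort selects for, stood at 2948 to 3848 CPM (median 3485) in the CD31+ libraries, against at most 106 CPM in any other bleomycin library. The summed level of 12 endothelial identity genes was 15410 to 20530 CPM in the CD31+ libraries (median 18670), against no more than 567 CPM in any other library, and all 12 genes led. Lyz2, which alveolar type II cells also express, made up most of the leukocyte marker sum outside the CD45+ fraction. Without it the other 11 leukocyte markers summed to 100.3 to 586 CPM in the CD31+ libraries, against 9014 to 11010 CPM in the CD45+ libraries. The 12 epithelial markers summed to 1058 to 10920 CPM in the CD31+ libraries (median 2547), and the highest value belonged to library Bleomycin_CD31_621. The mesenchymal markers summed to 306 to 1449 CPM in CD31+ libraries (median 660.1), the mural markers to 59.0 to 105 CPM and the platelet markers to 11.2 to 20.3 CPM. Library Bleomycin_CD31_621 of the CD31+ fraction and library Bleomycin_CD45_613 of the CD45+ fraction, whose mesenchymal markers summed to 7409 CPM against a median of 420.5 CPM, stood apart from their groups. Without library Bleomycin_CD31_621 the count of leading genes given below was 581 and without library Bleomycin_CD45_613 it was 566, in place of 570, and the counts of leading ligands and receptors were the same. At the median, the identity genes reached 1.35% of their CD31+ level in the CD45+ fraction, 0.80% in the EpCAM+ fraction and 1.32% in the triple-negative fraction.

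**Figure D1:**
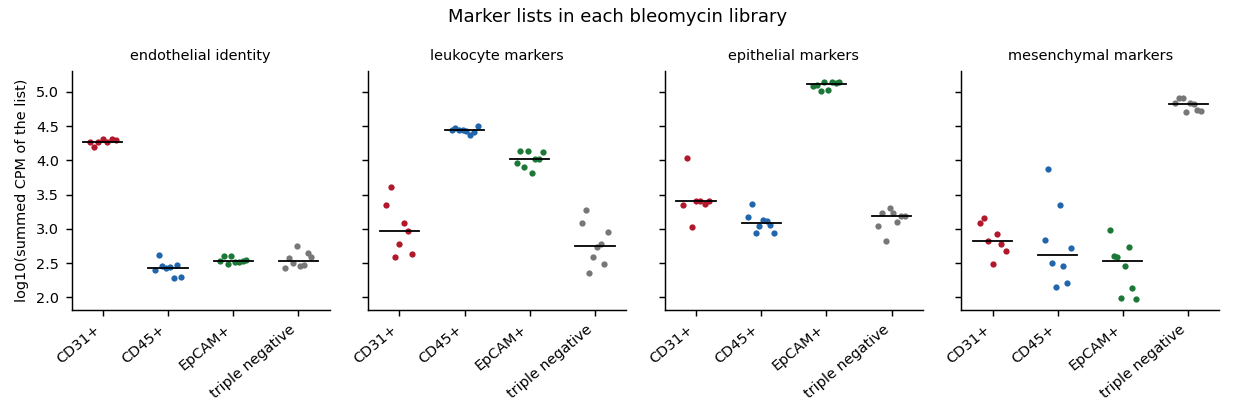
Summed CPM of the endothelial identity, leukocyte, epithelial and mesenchymal marker lists in each bleomycin library, on a log10 axis, with CD31+ libraries at the left of each panel followed by CD45+, EpCAM+ and triple-negative libraries. Points are libraries and bars are medians: the 7 CD31+ libraries sit between 15410 and 20530 CPM for the endothelial list, above all libraries of the other fractions.

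In the fibrotic lung 570 of 18503 genes tested, 3.08%, were CD31+-leading. Against the mean of the 3 other fractions, 6266 genes (33.9%) were higher in CD31+ cells and 7961 (43%) were lower. The CD31+ libraries did not overlap the libraries of any other fraction for 563 of the 570 leading genes. The rule for leading selects for such separation, so this count is no separate evidence. The triple-negative fraction came nearest to the CD31+ level for 304 of them, the CD45+ fraction for 137 and the EpCAM+ fraction for 129. The median least lead was 3.25, 191 genes led by at least 16-fold and 31 by at least 64-fold. The leading genes together took 18.7% of the CPM of the CD31+ libraries.

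The largest least lead belonged to Robo4 (chr9:37401902-37414023 on GRCm38), an endothelial receptor of the Roundabout family that stabilises vessels, and also a member of the identity check above. Robo4 stood at 379 to 474 CPM (median 438) in CD31+ cells, against 3.49 to 7.42 CPM in triple-negative cells, 3.08 to 7.97 CPM in CD45+ cells and 2.27 to 4.39 CPM in EpCAM+ cells, and led the triple-negative fraction by 6.40 ± 0.20 (SE, adjusted p = 1.53e-22). Cdh5, which encodes VE-cadherin of the endothelial adherens junction, followed with a least lead of 6.36 at 3886 to 5275 CPM (median 4708), against 38.2 to 88.4 CPM in triple-negative cells. Neither gene overlapped between the CD31+ fraction and another. The next 8 by least lead were Rtp3 (6.36), the adhesion receptor gene Adgrl4 (6.34), the multimerin gene Mmrn1 (6.32), Myct1 (6.31), the transcription factor gene Sox17 (6.29), the sialomucin gene Emcn (6.27), Ushbp1 (6.26) and the extracellular matrix gene Mmrn2 (6.25). Mmrn1 spread most between CD31+ libraries among these, from 197 to 548 CPM, with the highest value in library Bleomycin_CD31_622.

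Ranked by level per kilobase of exon, so that genes of different length can be compared, the leading genes were headed by Ly6a (2050 CPM per kb), the membrane protein gene also called Sca-1. Aqp1, the endothelial water channel gene, reached 1496 CPM per kb. Epas1, which encodes the hypoxia-responsive factor HIF-2alpha, reached 1387 CPM per kb, and Cldn5, the tight-junction claudin of endothelium, 1258 CPM per kb. Next came Cdh5 (1173), the angiotensin-converting enzyme gene Ace (1100), the fenestral diaphragm gene Plvap (943), Egfl7 (921), the thrombomodulin gene Thbd (916) and Ramp2 (842), all in CPM per kb. A high level did not always go with a large lead: Ace stood at 4976 to 7102 CPM (median 5375) in CD31+ cells, against 618.3 to 1005 CPM (median 759) in triple-negative cells, a least lead of 2.85.

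The 250 bases before the transcript start are shown for the receptor genes Robo4 and Tie1 and the ligand genes Sema3g and Dll4. These 4 were taken from the leading ligands and receptors in order of least lead. Genes that lead together can be compared at their promoters. The sequences come from RefSeq (GRCm38.p6), each is read 5′ to 3′ on the gene's own strand, and the capitals mark AGGAAG or its reverse complement CTTCCT, the core bound by ETS factors with its flanking bases. The windows are chr9:37401722-37401971 (plus strand) for Robo4, chr14:31217623-31217872 (plus strand) for Sema3g, chr4:118489850-118490099 (minus strand) for Tie1 and chr2:119325534-119325783 (plus strand) for Dll4, and the Robo4 start used lies inside the annotated gene, downstream of its outermost start.
Robo4: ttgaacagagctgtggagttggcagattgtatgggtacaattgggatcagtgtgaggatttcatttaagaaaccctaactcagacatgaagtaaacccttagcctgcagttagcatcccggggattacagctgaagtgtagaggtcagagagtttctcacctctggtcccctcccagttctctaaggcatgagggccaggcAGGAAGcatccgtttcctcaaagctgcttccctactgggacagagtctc
Sema3g: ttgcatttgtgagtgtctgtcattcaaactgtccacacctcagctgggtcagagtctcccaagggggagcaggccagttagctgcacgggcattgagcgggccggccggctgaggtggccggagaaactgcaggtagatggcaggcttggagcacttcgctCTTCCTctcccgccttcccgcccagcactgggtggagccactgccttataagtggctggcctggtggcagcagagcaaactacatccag
Tie1: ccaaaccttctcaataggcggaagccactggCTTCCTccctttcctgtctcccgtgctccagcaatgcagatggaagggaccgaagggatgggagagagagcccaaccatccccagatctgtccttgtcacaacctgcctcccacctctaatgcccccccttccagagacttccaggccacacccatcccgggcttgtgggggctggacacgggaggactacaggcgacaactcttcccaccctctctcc
Dll4: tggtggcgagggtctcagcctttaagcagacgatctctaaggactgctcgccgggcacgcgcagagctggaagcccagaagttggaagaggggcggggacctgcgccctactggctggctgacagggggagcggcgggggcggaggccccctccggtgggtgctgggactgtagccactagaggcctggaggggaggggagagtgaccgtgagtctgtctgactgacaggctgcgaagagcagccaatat
Robo4 had its match with the first matched base 49 bases before the start, Sema3g 89 and Tie1 219 bases before it, and the Dll4 window held none. On either strand, AGGAAG was found in 37.0% of the 495 RefSeq promoters of 385 leading genes, in 29.2% of the 17018 promoters of tested genes and in 29.5% of all 32851 promoters of the table. The stronger ETS word CCGGAAG, which shares 5 of its letters with AGGAAG, was found in 4.65% of the promoters of leading genes, 11.1% of those of tested genes and 6.91% of all. A match is a description of letters in the window only.

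Among 183 genes of secreted or membrane-bound ligands, 19 were CD31+-leading, beside 3.08% of all genes tested. Of the 170 ligand genes tested, 49 were higher in CD31+ cells than the mean of the other fractions and 100 were lower, beside 33.9% and 43% of all genes. Their median log2 difference was -1.15, against -0.14 for all genes tested. The 19 leading ligands fell into a few families: 7 of 17 semaphorins, 3 of 5 Notch ligands, and 1 each of the VEGF, PDGF, BMP, Wnt, ephrin, cytokine and TNF families, with 2 of 11 vasoactive peptides. No FGF or EGF family ligand, no angiopoietin family ligand (0 of 6) and no chemokine (0 of 32) led. Counts of 0 in lists of this size lie near the share of all genes. None of the 19 overlapped between CD31+ libraries and those of another fraction, a separation that the rule for leading selects for.

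Semaphorins, guidance proteins that act through plexins and neuropilins, were the largest family among the leading ligands. Sema3c (chr5:17574816-17730268) stood at 1306 to 2138 CPM (median 1516) in CD31+ cells, against 148 to 238 CPM in triple-negative cells, 35.0 to 53.9 CPM in EpCAM+ cells and 12.5 to 29.7 CPM in CD45+ cells, and exceeded their mean by 4.92 ± 0.10 (SE, adjusted p = 1.49e-27). Sema3f (chr9:107681499-107710475) stood at 1114 to 1560 CPM (median 1139), against 47.8 to 69.1 CPM in triple-negative cells, with a least lead of 4.46. Sema3g (chr14:31217873-31230352) stood at 931 to 1292 CPM (median 1047), against 8.86 to 24.1 CPM in triple-negative cells, and its least lead of 6.25 was the largest of all ligands. These 3 are secreted semaphorins of class 3. Sema7a, a membrane-anchored semaphorin that binds integrin beta 1, stood at 692 to 1509 CPM (median 1049), against 50.1 to 108 CPM in triple-negative cells. The class 6 members Sema6a, Sema6b and Sema6d, which are transmembrane, had CD31+ medians of 286, 160.5 and 276 CPM and least leads of 3.37, 2.55 and 2.46. Per kilobase, Sema3f (349.8 CPM per kb), Sema7a (315) and Sema3c (293) were the highest of the leading ligands.

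Of the 4 Notch ligand genes tested, 3 led, beside 3.08% of all genes tested. Dll4 (chr2:119325784-119335666), the ligand of tip and arterial endothelial cells, stood at 177 to 374 CPM (median 295) in CD31+ cells, against 3.31 to 6.62 CPM in the nearest fraction, EpCAM+ cells, and 2.32 to 6.31 CPM in triple-negative cells, and led the EpCAM+ fraction by 6.01 ± 0.23 (SE, adjusted p = 1.79e-20). Dll1 stood at 226 to 329 CPM (median 261), with a least lead of 5.31, and Jag2 at 200.5 to 271 CPM (median 239), with a least lead of 2.58. Jag1 was not leading: it stood at 71.4 to 92.6 CPM (median 80.0) in CD31+ cells, with a median of 40.98 CPM in triple-negative cells and 76.9 CPM in EpCAM+ cells. The Jag1 difference from EpCAM+ cells did not pass the test, at 0.10 ± 0.12 (SE, adjusted p = 0.435). Of their receptors, Notch1 and Notch4 led, whereas Notch2 was lower in CD31+ cells than in each other fraction and Notch3 was highest in triple-negative cells, at 130.3 to 242 CPM (median 199.8).

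Growth factor ligands that led were few. Pdgfb (chr15:79995865-80024614), which recruits pericytes, stood at 519 to 824 CPM (median 699) in CD31+ cells, against 74.2 to 118 CPM (median 88.8) in CD45+ cells and 16.9 to 29.6 CPM (median 21.4) in triple-negative cells, and led the CD45+ fraction by 2.89 ± 0.17 (SE, adjusted p = 6.41e-16). Bmp6 (chr13:38345716-38500314), a BMP known from liver endothelium for its control of iron, stood at 272 to 502 CPM (median 350.2), against 5.95 to 15.5 CPM in triple-negative cells and was the only one of 17 TGF-beta and BMP ligands to lead. Vegfc, the lymphatic growth factor, stood at 139 to 176 CPM (median 153), against 22.5 to 47.7 CPM in triple-negative cells, the smallest least lead of the 19 (2.14). Each of these 3 genes was the single leading member of its family. Kitl, the ligand of the receptor Kit, stood at 200.2 to 431 CPM (median 331), with a least lead of 2.32, and Tnfsf10, the death ligand TRAIL, at 545 to 660.7 CPM (median 579.5), with a least lead of 5.01. Efnb2 (chr8:8617235-8661242), the ephrin of arterial endothelium, stood at 454 to 915 CPM (median 571), against 26.6 to 35.9 CPM in triple-negative cells, a least lead of 4.40. Wnt9b passed the rule at a low level, 0.769 to 3.16 CPM (median 1.12).

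Both leading vasoactive peptides were endothelial by a wide margin. Edn1 (chr13:42301476-42307990), the vasoconstrictor endothelin-1, stood at 128 to 231 CPM (median 165) in CD31+ cells, against 6.79 to 18.9 CPM in EpCAM+ cells and 3.25 to 7.28 CPM in triple-negative cells, and led the EpCAM+ fraction by 3.94 ± 0.27 (SE, adjusted p = 4.59e-14). Apln (chrX:48025146-48034853), the peptide apelin that aerocytes and sprouting endothelial cells make, stood at 93.5 to 254 CPM (median 166), against 4.67 to 8.00 CPM in triple-negative cells, and led them by 4.63 ± 0.20 (SE, adjusted p = 3.51e-19). Adm, the peptide adrenomedullin, did not lead: it stood at 1.99 to 11.9 CPM (median 7.99) in CD31+ cells and 38.7 to 62.3 CPM (median 50.4) in triple-negative cells.

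**Figure D2:**
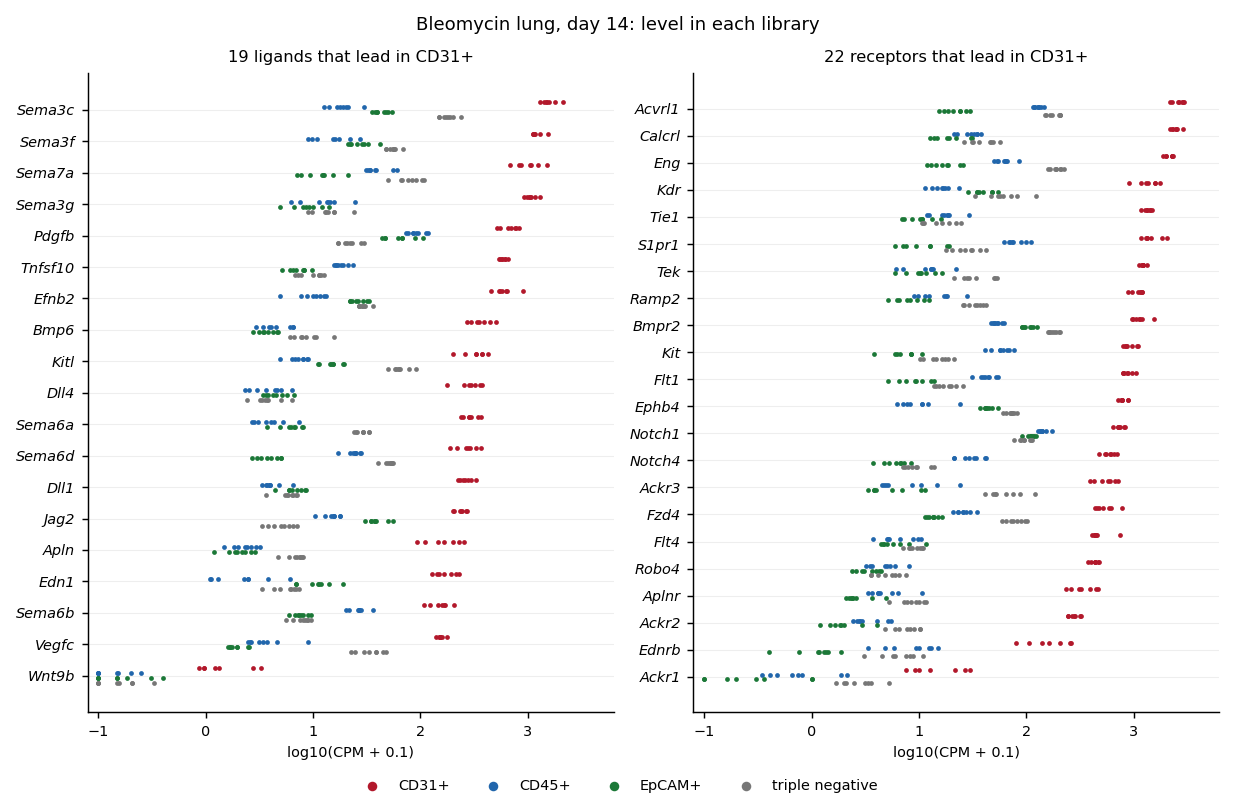
Level of the 19 leading ligand genes (left) and 22 leading receptor genes (right) in each of the 31 bleomycin libraries, as log10(CPM + 0.1) on the horizontal axis, with points coloured by fraction and genes ordered by their CD31+ median. For every gene the 7 CD31+ points lie to the right of all other points, which the rule for leading selects for.

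Of the 170 ligand genes tested, 28 were higher in CD31+ cells than in each other fraction, leading or not, beside 14.5% of all genes. Of these 28, 9 had no 4-fold lead over each. Cxcl12, a chemokine that retains leukocytes and progenitors, stood at 1114 to 1450 CPM (median 1213) in CD31+ cells, against 339 to 610.3 CPM (median 511) in triple-negative cells, a difference of 1.35 ± 0.30 (SE, adjusted p = 1.73e-04). Vegfa stood at 912 to 1083 CPM (median 975) in CD31+ cells, against 434 to 538 CPM (median 482) in EpCAM+ cells, a difference of 1.04 ± 0.14 (SE, adjusted p = 1.13e-07). Ntn1, the guidance protein netrin-1, stood at 515 to 753 CPM (median 602) in CD31+ cells, with a least lead of 1.76. The others of the 9 were Cx3cl1, Efna1, Efnb1, Pdgfd, Rspo3 and Sema4c.

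In the opposite direction, 10 of the 170 ligand genes tested were lower in CD31+ cells than in each other fraction, beside 9.99% of all genes tested. They were the cytokines Il6 and Lif, the TNF family member Tnfsf9, the chemokines Cxcl1 and Cxcl16, the EGF family members Ereg and Nrg1, and Gdf15, Wnt11 and Sema4b. Il6 stood at 0.0905 to 0.808 CPM (median 0.367) in CD31+ cells, with medians of 9.30 CPM in triple-negative cells, 2.30 CPM in EpCAM+ cells and 2.46 CPM in CD45+ cells. Cxcl1, which attracts neutrophils, stood at 0.859 to 4.70 CPM (median 1.33) in CD31+ cells, with medians of 42.9 CPM in triple-negative cells, 9.37 CPM in EpCAM+ cells and 27.1 CPM in CD45+ cells. By family, 2 of 24 cytokine, 2 of 28 chemokine and 1 of 16 TNF ligand genes tested were among the 10. None of these shares exceeded the 9.99% of all genes.

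Of 203 receptor genes, 22 were CD31+-leading, beside 3.08% of all genes tested. Of the 195 tested, 89 were higher in CD31+ cells than the mean of the other fractions and 97 were lower, with a median log2 difference of -0.43, against -0.14 for all genes tested. The leading receptors were 3 of 5 VEGF receptors, both angiopoietin receptors of the list, 3 of 11 TGF-beta and BMP receptors, 2 of 4 Notch receptors, 4 of 15 receptors of vasoactive peptides, 3 of 21 chemokine receptors, and Kit, Robo4, Fzd4, Ephb4 and S1pr1. None of the 22 overlapped between CD31+ libraries and those of another fraction, which again the rule for leading selects for. The triple-negative fraction was nearest for 15 of them and the CD45+ fraction for 7.

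Kdr (chr5:75932827-75979072), the main VEGF receptor of endothelium, stood at 899.7 to 1776 CPM (median 1368) in CD31+ cells, against 33.3 to 124 CPM in triple-negative cells, and led them by 4.38 ± 0.22 (SE, adjusted p = 2.43e-17). Flt1, the decoy-like VEGF receptor, stood at 797 to 1060 CPM (median 860.1), with a least lead of 4.36. Flt4, the receptor for Vegfc that marks lymphatics and some capillaries, stood at 413 to 749.7 CPM (median 442), with a least lead of 5.73 and its highest value in library Bleomycin_CD31_622. All 3 VEGF receptor tyrosine kinases were thus endothelial, and the co-receptor Nrp1 was higher in CD31+ cells than in each other fraction with a least lead of 1.06. Tek, the receptor Tie2 for angiopoietins, stood at 1116 to 1333 CPM (median 1219), against 21.2 to 53.8 CPM in triple-negative cells, a least lead of 5.05. Tie1 stood at 1181 to 1501 CPM (median 1339), against 11.7 to 29.1 CPM in CD45+ cells, a least lead of 6.25.

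Receptors of the BMP9 and BMP10 branch were among the leading receptors, and Acvrl1 had the highest CPM of the 22. Acvrl1 (chr15:101128522-101145336), which encodes the type I receptor ALK1, stood at 2180 to 2944 CPM (median 2645) in CD31+ cells, against 150.2 to 206 CPM in triple-negative cells, and led them by 3.84 ± 0.12 (SE, adjusted p = 2.14e-22). Its co-receptor endoglin, Eng, stood at 1886 to 2340 CPM (median 2264), against 158 to 225 CPM in triple-negative cells, a least lead of 3.49. The type II receptor gene Bmpr2 stood at 962 to 1556 CPM (median 1127), a least lead of 2.67. Mutations in these 3 genes cause inherited human vascular disease, hereditary haemorrhagic telangiectasia for Acvrl1 and Eng and pulmonary arterial hypertension for Bmpr2. Per kilobase, Acvrl1 reached 690 and Eng 603 CPM per kb, below Ramp2 (842 CPM per kb) among the leading receptors.

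G-protein-coupled receptors and their partners made up a further group. Calcrl (chr2:84330626-84425405), the receptor that binds adrenomedullin when paired with Ramp2, stood at 2205 to 2896 CPM (median 2494) in CD31+ cells, against 26.2 to 56.6 CPM in triple-negative cells, and led them by 5.92 ± 0.21 (SE, adjusted p = 3.39e-21). Ramp2 stood at 884 to 1192 CPM (median 1155), a least lead of 5.03. S1pr1 (chr3:115710433-115715055), the sphingosine-1-phosphate receptor that keeps the endothelial barrier tight, stood at 1172 to 2041 CPM (median 1336), against 62.3 to 110.5 CPM in CD45+ cells, a least lead of 4.20. These receptors belong to circuits that control vascular permeability. The apelin receptor gene Aplnr stood at 234 to 469 CPM (median 323), a least lead of 5.31, and the endothelin receptor gene Ednrb at 80.8 to 264 CPM (median 163), a least lead of 4.25. The 3 leading chemokine receptors were all atypical receptors, which bind chemokines without the usual signalling. Ackr2 stood at 246 to 325 CPM (median 277) with a least lead of 5.16, Ackr3 at 392 to 723 CPM (median 584) with 3.04, and Ackr1 at 7.55 to 29.7 CPM (median 12.6) with 2.55. Ackr1 is known as a marker of venous endothelium.

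Of the 195 receptor genes tested, 50 were higher in CD31+ cells than in each other fraction, leading or not, beside 14.5% of all genes, and 28 of these had no 4-fold lead over each. The 28 included the cytokine receptor chains Il6st (948 CPM at the median, least lead 0.44), Lifr (230.1 CPM, 1.89) and Il4ra (834 CPM, 1.45), the plexin genes Plxna1 and Plxnd1 (least leads 0.35 and 0.72), and Unc5b, a netrin receptor (1.26). Another 20 were lower in CD31+ cells than in each other fraction, beside 9.99% of all genes tested. These included Egfr, Met and the macrophage-stimulating protein receptor gene Mst1r, the cytokine receptor genes Il6ra, Il13ra1, Il17ra and Il18r1, Fzd1 and Fzd7, and the lysophosphatidic acid receptor genes Lpar1 and Lpar2. Egfr stood at 0.588 to 3.21 CPM (median 1.61) in CD31+ cells, against 87.8 to 118 CPM (median 93.3) in triple-negative cells and 16.8 to 21.5 CPM (median 18.1) in EpCAM+ cells. The signalling chain shared by interleukin 6 family cytokines was thus highest in CD31+ cells while Il6ra was lowest there, at 3.17 to 9.99 CPM (median 4.13), against 89.5 to 167 CPM (median 149) in CD45+ cells.

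Listed partners were then set side by side for 88 ligand and receptor pairs, whose binding was not tested here. Of these, 81 had both partners at a mean of 1 CPM or more in some bleomycin fraction. At least 1 member led in 39 pairs. Both partners led in 10 pairs. Among them Kitl averaged 329 CPM and Kit 926 CPM in CD31+ cells, Apln 171 and Aplnr 349 CPM, and Efnb2 614.5 and Ephb4 799.6 CPM. These are pairs whose ligand and receptor were both endothelial at the RNA level, and the levels say nothing of contact between cells. In the 19 pairs with a leading ligand, the receptor was highest in CD31+ cells in 14, in triple-negative cells in 4 and in EpCAM+ cells in 1. In the 30 pairs with a leading receptor, the ligand was highest in CD31+ cells in 16, in triple-negative cells in 9, in EpCAM+ cells in 4 and in CD45+ cells in 1. Over the whole lists, 32 of 170 ligand genes tested and 57 of 195 receptor genes tested had their highest mean in CD31+ cells. The pairs were chosen, so their counts describe the list of pairs. Of all 81 pairs, in which some genes recur, 22 had both partners highest in CD31+ cells. The receptor alone was highest there in 13 pairs with a triple-negative ligand, 5 with an EpCAM+ and 3 with a CD45+ ligand. The ligand alone was highest there in 8 pairs with a triple-negative receptor, 2 with an EpCAM+ and 2 with a CD45+ receptor. Highest means the largest mean, tested or not: Nrp2 averaged 259 CPM in CD31+ and 251 CPM in triple-negative cells.

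Pairs that ran from CD31+ to triple-negative cells included Pdgfb, at a mean of 684 CPM in CD31+ cells, with Pdgfrb, at 614.9 CPM in triple-negative cells. Edn1 averaged 175 CPM in CD31+ cells, its receptor gene Ednra 247 CPM in triple-negative cells, and Ednrb 174 CPM in CD31+ cells. Jag2 averaged 238 CPM in CD31+ cells and Notch3 195 CPM in triple-negative cells. Pairs that ran the other way paired a triple-negative ligand with an endothelial receptor. Angpt1, the activating ligand of Tek, averaged 93.3 CPM in triple-negative cells, and Tek 1219 CPM in CD31+ cells. Slit2 and Slit3 averaged 416 and 494 CPM in triple-negative cells, and Robo4, listed with them, 433 CPM in CD31+ cells. Whether Slit2 or Slit3 acts through Robo4 was not tested. Vegfd averaged 174 CPM in triple-negative cells and Flt4 482 CPM in CD31+ cells. For Acvrl1, the ligand gene Gdf2, which encodes BMP9, was low throughout and averaged 3.06 CPM in triple-negative cells, its highest fraction.

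**Figure D3:**
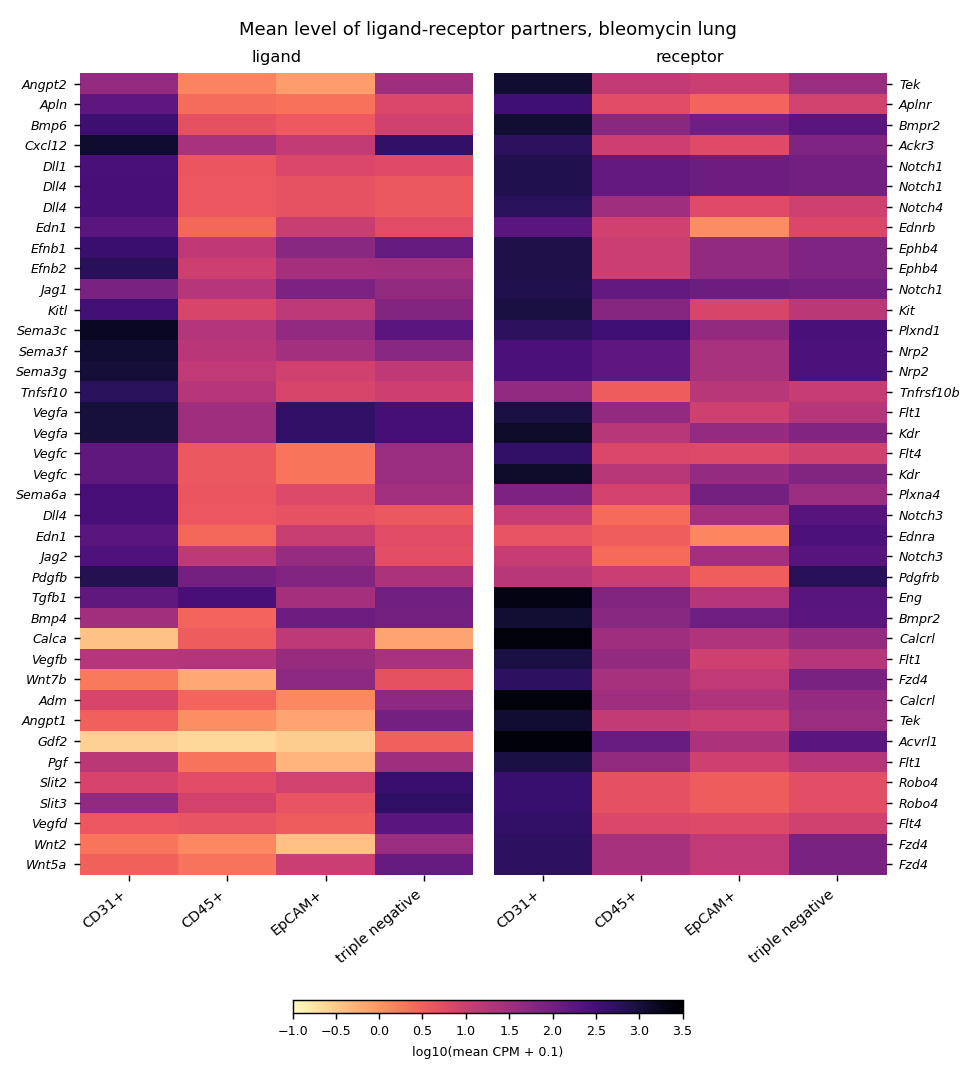
Mean level of the ligand (left panel) and its receptor (right panel) over the libraries of each bleomycin fraction, as log10(mean CPM + 0.1), for pairs in which at least 1 partner leads in CD31+ cells and both reach 1 CPM in some fraction. Pairs are ordered by the fraction in which the ligand is highest: darker cells mark higher means, and the pairs at the bottom join a ligand highest in triple-negative cells to a receptor highest in CD31+ cells.

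Genes of the endothelial subtypes led in unequal shares, beside 3.08% of all genes tested. A gene does not lead when another fraction also holds it, so the counts do not measure the subtypes among CD31+ cells. Leading or not, 7 aerocyte, 7 arterial, 6 venous and 5 lymphatic genes were higher in CD31+ cells than in each other fraction, beside 14.5% of all genes. All 10 general capillary genes led, among them Gpihbp1 (380.2 to 602 CPM (median 434)), the platform for lipoprotein lipase on capillaries, with a least lead of 6.19, and Plvap (1761 to 2043 CPM (median 1830)) with 4.69. Of 10 genes of aerocytes, the large capillary cells of the alveolus, 5 led (Ednrb, Apln, Chst1, Prx and Kdr). Car4, the carbonic anhydrase often used to mark them, stood at 315 to 619.1 CPM (median 491) in CD31+ cells and 123 to 251 CPM (median 154) in CD45+ cells. Of 10 arterial genes 4 led (Gja4, Efnb2, Hey1 and Sox17), of 10 venous genes 5 (Slc6a2, Ackr1, Vwf, Selp and Ephb4), and of 8 lymphatic genes 5 (Prox1, Lyve1, Flt4, Mmrn1 and Reln). Several subtype genes known from sorted endothelium were higher elsewhere in these lungs: Mgp had a median of 195 CPM in CD31+ cells and 10060 CPM in triple-negative cells, Nr2f2 44.9 and 182 CPM, and Vcam1 37.6 and 369 CPM. Lists of single subtypes overlap in a few genes, Kdr, Tek, Apln and Efnb2 among them.

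Among 36 transcription factor genes with a known part in endothelium, 15 led and 24 were higher than in each other fraction, beside 3.08% and 14.5% of all genes tested. The 3 members of the SOXF group led by wide margins: Sox17 stood at 287 to 448 CPM (median 339) in CD31+ cells with a least lead of 6.29, Sox18 at 359 to 527 CPM (median 436) with 5.67, and Sox7 at 328 to 588 CPM (median 430.3) with 5.48. Gata2 stood at 489 to 778 CPM with a least lead of 5.90 and Tal1 at 105 to 130.2 CPM (median 116) with 5.19. Of the ETS genes, Erg led by at least 3.96, Elk3 by 2.45 and Ets2 by 2.10, whereas Ets1 (0.92) and Fli1 (1.14) were higher than in each other fraction but below the 4-fold lead, with the CD45+ fraction nearest. The BMP targets Smad6 and Id1 led by 3.99 and 2.43. Klf2 and Klf4, the flow-responsive factors, had least leads of 1.62 and 1.83.

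Genes of the vessel wall's other functions divided by group, and each count below stands beside 3.08% of all genes tested that led. Of 26 junction and adhesion genes 10 led, including Cldn5, Cdh5, Podxl, Icam2 and Mcam. The leukocyte adhesion genes Icam1 and Vcam1 did not: Icam1 stood at 351 to 534 CPM (median 466.4) in CD31+ cells and 972 to 1352 CPM (median 1218) in EpCAM+ cells. The selectin genes Sele and Selp led at medians of 13.9 and 44.8 CPM. Of 22 coagulation genes 5 led, with Thbd at 2814 to 4155 CPM (median 3221) and Vwf, the von Willebrand factor gene, at 2583 to 3754 CPM (median 3140). Of 18 vascular tone genes 7 led, with Nos3, the endothelial nitric oxide synthase gene, at 179.5 to 266 CPM (median 206), against 3.34 to 6.15 CPM in EpCAM+ cells. Of 24 caveola and transport genes 11 led, including Cav1 (2.59), Slco2a1 (3.03), the prostaglandin transporter gene, and Abcb1a (4.13). Of 16 integrin genes 3 led (Itga1, Itga2 and Itga6), whose products bind collagen or laminin.

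No gene of the interstitial and basement membrane matrix lists led, which in lists of 20 and 21 genes lies near the 3.08% of all genes tested. All 20 interstitial matrix genes were highest in the triple-negative fraction. Col1a1, for example, stood at a median of 152 CPM in CD31+ cells, against 17350 CPM in triple-negative cells. None of 21 basement membrane genes led, and 2 were highest in CD31+ cells. These were the partners Col4a1, at 4168 to 5771 CPM (median 5405) in CD31+ cells and 2702 to 4380 CPM (median 3422) in triple-negative cells, and Col4a2, at 2421 to 3454 CPM (median 2998) and 1601 to 2531 CPM (median 2081). Neither difference from the triple-negative fraction passed the test, at 0.60 ± 0.29 (SE, adjusted p = 0.0706) for Col4a1 and 0.56 ± 0.28 (SE, adjusted p = 0.0765) for Col4a2. Of the laminin chain genes, Lama5 had a median of 578 CPM in CD31+ cells, 593 CPM in EpCAM+ cells and 291 CPM in triple-negative cells, and Lama4 was lower in CD31+ cells, at 99.7 CPM against 603 CPM in triple-negative cells.

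**Figure D4:**
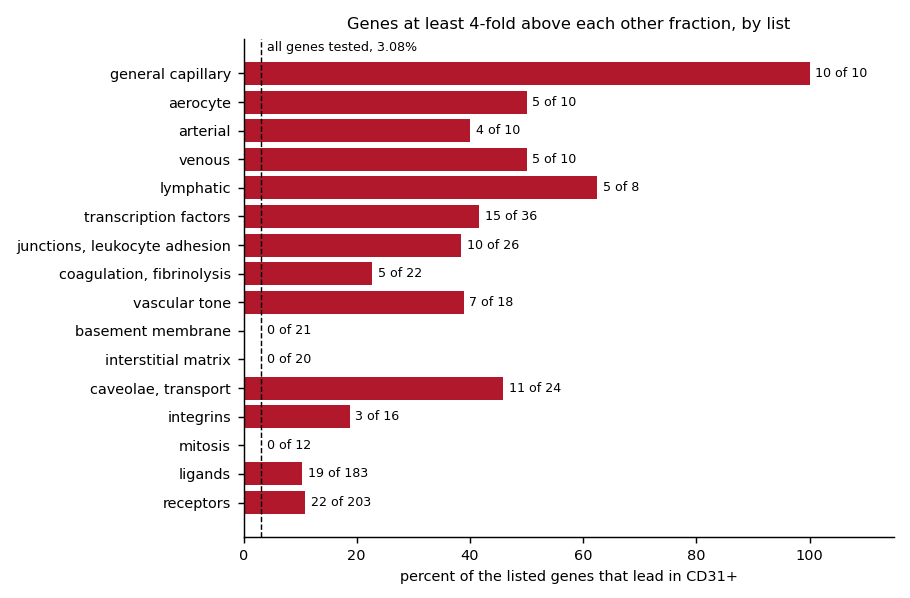
Percent of the genes of each list that were CD31+-leading, with the count beside each bar and the dashed line at the 3.08% of all genes tested. All 10 general capillary genes lead. No basement membrane, interstitial matrix or mitosis gene does, which in lists of this size lies near the dashed line.

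The genes lowest in CD31+ cells by the same measure, below each other fraction by the largest margin, were Irs2, Mt1, Ugt1a9, Ugt1a10 and Ugt1a6b. Irs2, an adaptor of the insulin receptor, stood at 1.81 to 8.41 CPM (median 2.71) in CD31+ cells, with medians of 66.8 CPM in triple-negative cells, 50.2 CPM in EpCAM+ cells and 44.7 CPM in CD45+ cells. Mt1, a metallothionein that binds metals, stood at 4.09 to 30.4 CPM (median 7.83) in CD31+ cells, with medians of 137, 149 and 142 CPM in triple-negative, EpCAM+ and CD45+ cells. Library Bleomycin_CD31_621, which had the highest epithelial and leukocyte marker sums of the CD31+ libraries, was the highest CD31+ library for all 5 genes. The part of other cells in these values was not tested. The 3 Ugt1a genes share most of their exons, so their values are uncertain and may stand for 1 signal.

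To see which leads belonged to the fibrotic lung, all 51 libraries were fitted together and the lead over the mean of the 3 other fractions was compared between bleomycin and saline. In this fit 19841 genes were tested, 627 (3.16%) were leading in bleomycin lungs and 588 (2.96%) in saline lungs, and 485 were leading in both. Of the 41 leading ligands and receptors, 38 led in saline lungs as well. The exceptions were Jag2, Ackr1 and Ackr3. Thus most of the ligands and receptors that were endothelial in the fibrotic lung were also endothelial in the uninjured lung. Over all genes this split depended on the processing: 3091 genes had a larger and 2331 a smaller lead here, against 2150 and 2980 with no filter on low counts, 2578 and 2839 with total counts as the scaling, and 2873 and 2696 with a stricter filter. The lead differed between bleomycin and saline for 11 of the 41, larger in bleomycin for 10 and smaller for Bmpr2, beside 15.6% of all genes with a larger lead and 11.7% with a smaller lead. Among the 627 leading genes as a whole the lead was larger for 136 and smaller for 19.

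The largest of these differences were in chemokine and endothelin receptors. Ackr3 stood at 392 to 718 CPM (median 579) in bleomycin CD31+ cells, against 212, 245, 274, 303 and 349.5 CPM in saline CD31+ cells, and the groups did not overlap. In the triple-negative fraction Ackr3 averaged 66.3 CPM after bleomycin and 325 CPM after saline, so both sides of the comparison differed, and the lead was larger in bleomycin by 1.56 ± 0.41 (SE, adjusted p = 0.00324). Ackr2 stood at 244 to 323 CPM (median 277) in bleomycin CD31+ cells, against 165, 166, 199, 214 and 224 CPM in saline CD31+ cells, and its lead was larger by 1.44 ± 0.27 (SE, adjusted p = 5.53e-05). The CD31+ groups did not overlap, and Ackr2 averaged 7.63 CPM in bleomycin and 25.2 CPM in saline triple-negative cells. Ednrb stood at 80.7 to 264 CPM (median 162) in bleomycin CD31+ cells, against 184, 221, 252, 263 and 298 CPM in saline CD31+ cells, and its lead was larger by 1.27 ± 0.39 (SE, adjusted p = 0.0127). For Ednrb the CD31+ level was lower in bleomycin on average, with overlap between the groups, and the larger lead went with 6.63 CPM in bleomycin and 59.4 CPM in saline triple-negative cells. Ackr1 stood at 7.49 to 29.6 CPM (median 12.5) in bleomycin CD31+ cells, against 1.82, 2.61, 5.17, 5.95 and 6.36 CPM in saline CD31+ cells, and its lead was larger by 1.80 ± 0.69 (SE, adjusted p = 0.0462). The Ackr1 groups did not overlap, but its adjusted p lay close to the threshold. It was lost when any of 29 of the 51 libraries was left out, with log2 differences of 1.52 to 1.86 over these, the smallest without library Saline_EpCAM_656 (adjusted p = 0.205). It was also lost with no filter on low counts and with the run of table columns as a covariate.

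For the other 7 genes with a changed lead the differences were below 1 on the log2 scale. They were S1pr1 at 0.98 (adjusted p = 0.026), Tek at 0.99 (adjusted p = 0.0125), Sema3f at 0.87 (adjusted p = 0.00505), Sema3c at 0.74 (adjusted p = 0.0136), Ephb4 at 0.68 (adjusted p = 0.0237), Efnb2 at 0.67 (adjusted p = 0.0314) and Bmpr2 at -0.39 (adjusted p = 0.0283), each as the lead in bleomycin minus the lead in saline. A larger lead did not always go with a higher level in CD31+ cells. Tek stood at 1108 to 1322 CPM (median 1211) in bleomycin CD31+ cells, against 1739, 1790, 1931, 1954 and 1985 CPM in saline CD31+ cells, with no overlap, and averaged 35.9 CPM in bleomycin and 132 CPM in saline triple-negative cells. Efnb2 stood at 453 to 907 CPM (median 567) in bleomycin CD31+ cells, against 706, 772, 795, 852 and 904 CPM in saline CD31+ cells, and averaged 28.5 CPM in bleomycin and 117 CPM in saline triple-negative cells. Tek and Efnb2 were thus lower in CD31+ cells on average, and lower still in the triple-negative fraction. In contrast S1pr1 stood at 1172 to 2024 CPM (median 1327) in bleomycin CD31+ cells, against 1073, 1113, 1115, 1127 and 1129 CPM in saline CD31+ cells, and Sema3f at 1106 to 1550 CPM (median 1137), against 830, 874, 976, 1021 and 1042 CPM in saline CD31+ cells, without overlap in either gene. The other fractions differed here too: S1pr1 averaged 79.5 CPM in bleomycin and 208 CPM in saline CD45+ cells, and Sema3f 54.3 CPM in bleomycin and 91.5 CPM in saline triple-negative cells. Bmpr2 stood at 955 to 1543 CPM (median 1119) in bleomycin CD31+ cells, against 1538, 1652, 1745, 1761 and 1765 CPM in saline CD31+ cells, and overlapped in 1 bleomycin library. The calls for Efnb2, Ephb4, S1pr1 and Bmpr2 were lost when single libraries were left out. These were Bleomycin_CD31_623, Saline_CD31_650, Saline_CD31_651, Saline_CD31_652 and Saline_EpCAM_654 for Efnb2 (log2 differences of 0.57 to 0.66), Saline_CD31_649 and Saline_CD31_651 for Ephb4 (both 0.63), Saline_CD31_650 for S1pr1 (0.95), and Bleomycin_CD31_620, Bleomycin_CD31_621, Bleomycin_CD31_622 and Bleomycin_CD31_625 for Bmpr2 (-0.37 to -0.35). Sema3c, Sema3f, Tek, Ackr2, Ackr3 and Ednrb kept their calls in all 58 alternatives. The calls for Efnb2 (adjusted p = 0.0892), Ephb4 (adjusted p = 0.0854) and S1pr1 (adjusted p = 0.0609) were also lost with no filter on low counts, and that for Efnb2 with total counts as the scaling.

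The endothelial genes found in the other fractions moved with this comparison. The 12 identity genes summed to a median of 267 CPM in bleomycin CD45+ libraries and 632.9 CPM in saline ones, to 341 and 492 CPM in the EpCAM+ libraries of bleomycin and saline lungs, and to 337 and 623.5 CPM in the triple-negative libraries of bleomycin and saline lungs. Their sum in the CD31+ libraries was 18560 CPM in bleomycin and 20800 CPM in saline at the median. The estimated lead of the identity genes was larger in bleomycin for all 12, but the difference passed the test for only 3, beside 15.6% of all genes. The median difference was 0.73, against 0.40 over the 627 leading genes and 0.02 over all 19841 genes. The part of these lower endothelial sums in each larger lead was not tested.

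Over all genes, the largest increase of the lead among leading genes was that of Kcnt1, a sodium-activated potassium channel gene, which stood at 2.20 to 17.9 CPM (median 4.65) in bleomycin CD31+ cells, against 0, 0.0399, 0.0418, 0.0685 and 0.448 CPM in saline CD31+ cells, a difference of 5.15 ± 0.99 (SE, adjusted p = 8.38e-05). Gria2, a glutamate receptor subunit gene, stood at 2.54 to 7.08 CPM (median 3.35), against 0, 0, 0.120, 0.166 and 0.523 CPM in saline CD31+ cells, a difference of 3.83 ± 0.79 (SE, adjusted p = 2.12e-04). Stab2, a scavenger receptor gene known from liver sinusoidal endothelium, stood at 17.0 to 48.7 CPM (median 21.4), against 1.37, 1.63, 1.91, 4.89 and 5.03 CPM in saline CD31+ cells, a difference of 3.49 ± 0.44 (SE, adjusted p = 3.51e-08). The groups did not overlap for any of these 3 genes, which were low or near 0 in saline CD31+ cells, so the fitted folds of Kcnt1 and Gria2 depend on the handling of counts at 0 and are no bound. Library Bleomycin_CD31_622, which was also highest for the lymphatic genes Mmrn1 and Flt4, was highest for Kcnt1 and Gria2, and without it their differences were 4.63 and 3.60. Cmah and the uncharacterised Gm35340 had differences of 3.32 (adjusted p = 1.47e-09) and 3.24 (adjusted p = 0.00293). The leads that shrank most were those of Olfm2 (-1.93 (adjusted p = 8.88e-07)), Ppp2r2c (-1.93 (adjusted p = 3.81e-06)), C1qtnf9 (-1.72 (adjusted p = 1.81e-04)), Izumo1 (-1.56 (adjusted p = 0.0184)) and Ahr (-1.54 (adjusted p = 7.71e-08)). Ahr, the receptor for aryl hydrocarbons, stood at 148 to 354 CPM (median 217) in bleomycin CD31+ cells, against 439, 461, 470.4, 504 and 532 CPM in saline CD31+ cells.

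**Figure D5:**
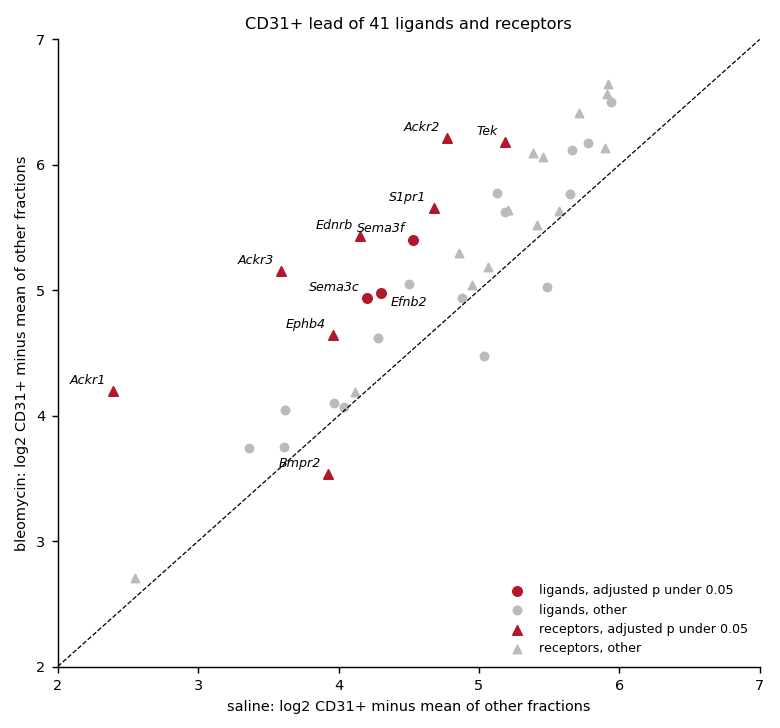
CD31+ lead over the mean of the other fractions (log2) in bleomycin lungs on the vertical axis and in saline lungs on the horizontal axis, for the 41 leading ligand (circles) and receptor (triangles) genes. The dashed line marks equal leads, and the named red points are the 11 genes whose lead differed, 10 of them above the line.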

How the data were processed

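RNA was sequenced from 4 sorted lung fractions of mice given bleomycin or saline. The deposited files hold raw counts per Entrez gene identifier and library, made by the authors against GRCm38, per the submitters' processing notes; the aligner, the annotation and the strand setting of the counting are not given in the sources used here. All 51 library files equal the corresponding columns of the deposited count table. Of 36528 identifiers, 31049 matched a symbol in RefSeq (GRCm38.p6), and those without one held 1.633% of the counts. Counts were tested with edgeR 4.0.16 in R 4.3.3: TMM scaling, filterByExpr, a robust quasi-likelihood F test (two-sided) with 1 coefficient per group, and Benjamini-Hochberg adjustment over all genes tested, with a threshold of 0.05. The 31 bleomycin libraries were fitted together and CD31+ was set against each other fraction and their mean. A second fit of all 51 libraries tested whether the lead differed between bleomycin and saline. SEs were derived from the F statistic. CPM use TMM-scaled library sizes of the fit they belong to, and levels per kilobase use the union of exons. Because the animal behind each library is not given, p-values treat the libraries as independent. The label numbers, described below, offer a possible pairing that the main fits did not use. The tests were checked on simulated data with independent libraries and few changed genes. That setting differs from these data, so the check does not cover shared animals or many changed genes. Alternatives were RLE or total-count scaling, DESeq2 1.42.0, other filters, other sizes of lead, the run of table columns as a covariate, each library left out and, chosen after seeing the data, a block by the place of a library in its fraction's run of label numbers.

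Genes were named by these rules: the 10 leading genes with the largest least lead, the 10 with the highest level per kilobase, the leading members of the ligand and receptor lists with their partners, the 5 genes lowest against each other fraction, and the 5 leading genes whose lead increased and the 5 whose lead decreased most against saline. The fractions, members and gene lists were chosen with earlier results of these data known. Strand-specific overlaps and close gene families are uncertain where the counting could split reads.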

Additional observations from a re-analysis of the deposited data

Results flagged for a closer look

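In 105 checks, of named genes in the CD31+ libraries and of marker sums in each fraction, 20 found a single library far from the rest. Chance gives about 1 in 20 for independent checks of normally distributed values. These checks share libraries and were made on CPM, so that rate gives no expected count here. In the CD31+ fraction library Bleomycin_CD31_621 stood highest for the 5 genes that were lowest in CD31+ cells, at 8.41 CPM for Irs2, 30.4 CPM for Mt1, 14.7 CPM for Ugt1a9 and for Ugt1a10 and 14.9 CPM for Ugt1a6b, and for the summed epithelial markers at 10920 CPM. The same library stood lowest for Egfl7, at 1345 CPM. Library Bleomycin_CD31_622 was highest for Mmrn1 (547.8 CPM) and Flt4 (749.7 CPM), both on the lymphatic list. Library Bleomycin_CD31_623 was highest for Bmpr2 (1556 CPM) and Efnb2 (915 CPM), and library Bleomycin_CD31_624 for Ace (7102 CPM) and Sema3f (1560 CPM). The same library Bleomycin_CD31_622 was highest for the low genes Kcnt1 (17.98 CPM), Gria2 (7.13 CPM) and Gm35340 (2.49 CPM). In the CD45+ fraction library Bleomycin_CD45_613 was highest for the summed epithelial (2314 CPM), mesenchymal (7409 CPM) and mural markers (299 CPM), and library Bleomycin_CD45_618 for the erythroid markers, at a low 2.48 CPM.

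Genes whose lead over the other fractions differed between bleomycin and saline (edgeR, adjusted p under 0.05) are each given as bleomycin minus saline on the log2 scale. Of the ligands and receptors, it was larger in bleomycin for Ackr1 (1.80), Ackr3 (1.56), Ackr2 (1.44), Ednrb (1.27), Tek (0.99), S1pr1 (0.98), Sema3f (0.87), Sema3c (0.74), Ephb4 (0.68) and Efnb2 (0.67), and smaller for Bmpr2 (-0.39). Of the other genes with a large or abundant lead, it was larger for Mmrn1 (1.31), Thbd (0.95), Ace (0.59) and Ly6a (0.55). The 4 of the genes lowest in CD31+ cells that differed were less far below the other fractions in bleomycin, by 0.81 for Irs2, 0.67 for Ugt1a9 and Ugt1a10 and 0.68 for Ugt1a6b. Chosen for their difference from saline, and so no separate evidence of one, the leads of Kcnt1 (5.15), Gria2 (3.83), Stab2 (3.49), Cmah (3.32) and Gm35340 (3.24) increased most, and those of Olfm2 (-1.93), Ppp2r2c (-1.93), C1qtnf9 (-1.72), Izumo1 (-1.56) and Ahr (-1.54) decreased most. The summed endothelial identity genes in the other fractions were lower in bleomycin than in saline, and their part in these differences was not tested.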

How the results depend on the processing

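The counts of genes depended most on the size of the lead asked for: 1078 genes led by at least 2-fold and 310 by at least 8-fold, in place of 570 at 4-fold, and 36 receptors in place of 22 led by at least 2-fold. With any 1 of the 31 bleomycin libraries left out, 556 to 581 genes led, 6126 to 6322 were higher and 7704 to 8022 lower than the mean of the other fractions, and the 19 leading ligands and 22 leading receptors kept those counts. In the comparison with saline all 51 libraries were left out in turn, 29 of the bleomycin ones as an alternative chosen after seeing the data: 2488 (without Saline_CD31_650) to 3311 genes had a larger and 1985 to 2513 a smaller lead in bleomycin, and 584 to 607 led in saline. DESeq2 gave 569 leading genes, RLE scaling 568, total counts 570, no filter 759, a stricter filter 527 and the run of table columns as a covariate 568. The CD31+ libraries fell into both runs, and 583 and 589 genes led within them.

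Among single genes, 2582 recomputed differences of CD31+ from the mean of the other fractions kept their direction and call. Of the recomputed differences from saline 1169 did so and 48 kept their direction but lost the call, 31 of them for Ackr1, 7 for Efnb2, 4 for Bmpr2, 3 for Ephb4, 2 for S1pr1 and 1 for Gm35340 (2.70, adjusted p = 0.11, without library Saline_CD45_645). None of these differences reversed. The groups share no replicate number, but the label numbers run in parallel over the fractions, 8 places for bleomycin and 5 for saline. Deviations from the group means correlated across genes at a median of 0.161 (0.017 to 0.379) between 45 pairs of bleomycin libraries at the same place and -0.02 between the others, and 27 of 31 libraries correlated best with their own place, as did 20 of 20 saline libraries. The labels do not say that a place is an animal. With the place as a replicate block, chosen after seeing the data, 568 genes led (19 ligands and 22 receptors), 6395 were higher and 8163 lower, 592 led in saline, 3395 had a larger and 2659 a smaller lead in bleomycin, and no call of a named gene changed. Depth limits genes near 1 CPM, such as Wnt9b and Gm35340, and low Ackr1. Bulk levels do not separate cell number from RNA per cell, and libraries of 1 animal are not independent.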

Other observations

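Of 8 endothelial receptor genes of the adhesion or orphan G-protein-coupled type, 6 were CD31+-leading in bleomycin lungs, beside 3.08% of all genes tested. Adgrf5, a receptor known from pulmonary endothelium and alveolar type II cells, stood at 3095 to 4455 CPM (median 3652) in CD31+ cells, against 514 to 778 CPM (median 646.7) in EpCAM+ cells, a least lead of 2.49. Gpr182, an atypical receptor of lymphatic and sinusoidal endothelium, stood at 159.8 to 223 CPM (median 184) in CD31+ cells, against 1.63 to 3.92 CPM in triple-negative cells, a least lead of 6.03. Adgrl2, Gpr146 and Gpr4 led by 3.46, 2.77 and 2.27, whereas Adgrg6 and Adgra2 did not lead.

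Of 12 mitosis genes, 11 were higher in CD31+ cells than the mean of the other fractions in bleomycin lungs, beside 33.9% of all genes, with a median log2 difference of 0.88 over the 12, against -0.14 for all genes tested. None led by 4-fold, which in so short a list lies near the 3.08% of all genes. Of the 12, 4 were higher than in each other fraction (Mki67, Cenpf, Tpx2 and Ccna2), beside 14.5% of all genes. Mki67, a marker of cycling cells, stood at 111 to 306 CPM (median 169) in CD31+ cells, against 112 to 157 CPM (median 141) in CD45+ cells, 71.8 to 119.9 CPM (median 93.1) in EpCAM+ cells and 34.1 to 91.0 CPM (median 64.4) in triple-negative cells, with a difference from CD45+ cells of 0.50 ± 0.20 (SE, adjusted p = 0.0269). Of 27 secreted matricellular and angiogenic genes 4 led (Egfl7, Mmrn2, Apln and Hpgd), beside 3.08% of all genes tested. Hpgd, which encodes the enzyme that breaks down prostaglandins, stood at 662.3 to 1254 CPM (median 829.6) in CD31+ cells, against 31.2 to 51.6 CPM in CD45+ cells.

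Other words searched in the promoters of leading genes were the SOX core AACAAT, found on either strand in 8.08% of them and 5.78% of the promoters of tested genes, the GATA core AGATAA, in 8.28% and 6.56%, and the KLF core CACCC, in 62.4% and 58.0%. AGGAAG overlaps none of these 3 words. These are shares of letters in windows, and no test was made of them.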
